A study of Mus musculus with 4 samples.

Results

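The complement components and receptors described here are 9 genes of the 32285 in the gene list of each sample: C1qa, C1qb and C1qc, C2, C3, Cfb, Cfp, C3ar1 and C5ar1. They were taken by symbol, and the rule used no measured value, but the genes were chosen with earlier results of these data known. The level of each was its CPM, that is its UMIs (unique molecular identifiers, each counting 1 captured transcript) summed over the cells of a class within a sample and scaled to 1000000 UMIs. Mice drank 2% dextran sulfate sodium (DSS), an irritant of the colonic lining, for 7 days, and colons were taken on day 8. CD45+ cells, that is cells with the surface protein of leukocytes, were selected on magnetic beads from digested colon and sequenced as 4 droplet libraries, each a mix of 3 mice. The labels give an age of 10 weeks and the methods 8 weeks. All 4 libraries came from DSS-treated mice. The study used AhR-null mice, which lack the aryl hydrocarbon receptor in every cell, and wild type littermates, but the labels give no genotype for any library, so the libraries are called samples 1 to 4, are not replicates of a group here, and were compared by class within each sample.

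Complement is a set of plasma and cell-surface proteins that coat microbes and dead cells, attract leukocytes and lyse membranes. C1q starts the classical pathway when it binds antibody or dying cells, C2 is the protease that the classical and lectin pathways share, and factor B (Cfb) takes its place in the alternative pathway, which properdin (Cfp) stabilises. All routes cleave C3, and the fragments C3a and C5a act through the receptors C3aR (C3ar1) and C5aR1 (C5ar1). The liver makes most plasma complement, while C1q comes mainly from macrophages and dendritic cells.

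The deposited matrices held 8493 to 13730 cells and 72509408 to 135516016 UMIs per sample, and 39550 of 45229 cells were kept, with a median of 5633.5 to 7084 UMIs. Pairs of samples shared 0.271% to 0.423% of cell barcodes. A cell was given a class by the share of that class's marker genes detected, and none of the markers was a complement gene. The gate gave 370 to 1406 monocytes, 315 to 896 intermediate cells, which met neither the monocyte nor the macrophage limits, 482 to 787 macrophages, 554 to 2192 neutrophils and 60 to 331 fibroblasts per sample. Each of the monocyte, macrophage, neutrophil and fibroblast classes had a median of at least 53.8% of its own markers per cell, and no marker of those 4 lists was at 0 in its class. The gate used these same lists, so the shares describe the classes and do not test them. Conventional dendritic cells, which join type 1, type 2 and mature cells, had medians of 0%, 16.7% and 85.7% of those lists. Fibroblasts had 18.5 to 68.3 CPM of Ptprc, which encodes CD45, against 1103 to 1384 CPM in macrophages, so the bead selection left stromal cells in the data. Cells with markers of unlike lineages were set aside as mixed and made up 13.9% to 23.6% of kept cells. Their median was 12103.5 to 14387.5 UMIs. A further 9.8% to 16.8% of kept cells, with a median of 1905.5 to 2498.5 UMIs, were given no class. The gate thus left out cells of both high and low depth. B cells made up 25.7% and 22.2% of kept cells in samples 1 and 2 but 2.7% and 4.71% in samples 3 and 4. Intervals below are 95% exact intervals and cover counting error only.

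**Figure D1:**
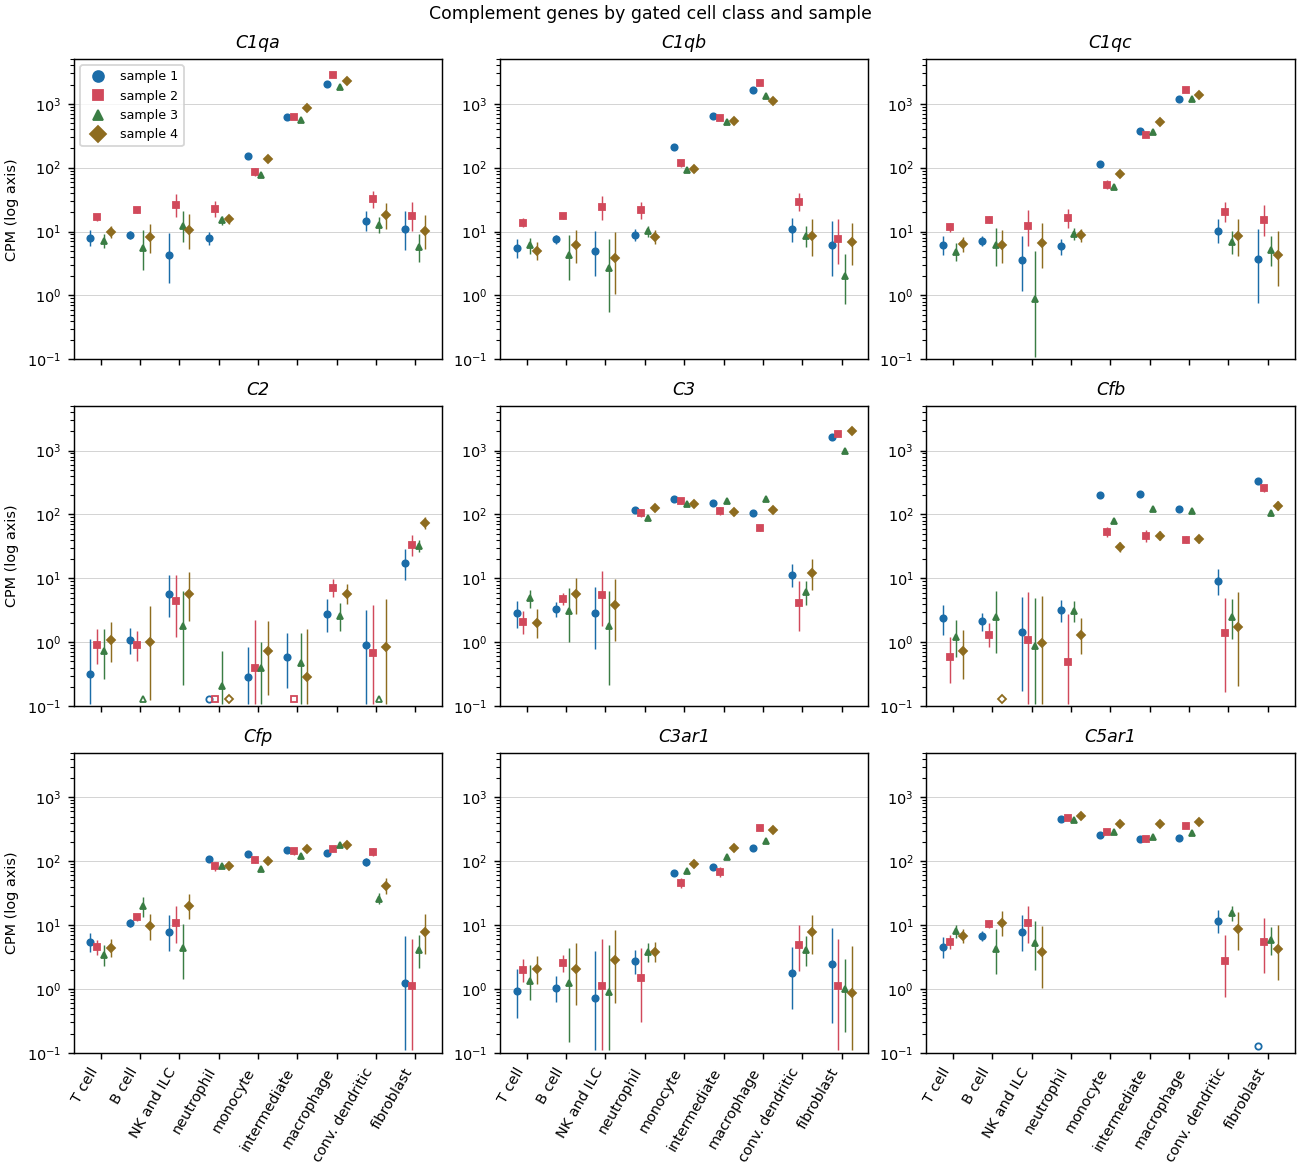
Level of each of the 9 genes in CPM on a log axis (vertical) by gated cell class (horizontal), with 1 symbol per sample. Bars are 95% exact Poisson intervals, shortened at the foot of the axis, and open symbols at the foot mark 0 UMIs. C1qa, C1qb, C1qc and C3ar1 climb from monocyte to macrophage in every sample, C3 and C2 are highest in fibroblasts and C5ar1 in neutrophils.

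C1qa, C1qb and C1qc encode the 3 chains of the C1q molecule, and their genes lie side by side on 1 strand within 18675 bases of chromosome 4 (C1qa, ENSMUSG00000036887, chr4:136895917-136898803; C1qb, ENSMUSG00000036905, chr4:136880129-136886187; C1qc, ENSMUSG00000036896, chr4:136889804-136893065; GRCm38, minus strand). RefSeq promoters matched 6 of the 9 genes. The 250 bases before the RefSeq start of C1qb (chr4:136886201-136886450, GRCm38.p6) and C1qc (chr4:136892915-136893164) are shown because their transcripts moved together across classes. The RefSeq start of C1qc lies inside the gene interval given above, so its window overlaps that interval from 136892915 to 136893065. Capitals mark GAGGAA on either strand, the core letters bound by PU.1, a transcription factor of myeloid cells.
C1qb promoter: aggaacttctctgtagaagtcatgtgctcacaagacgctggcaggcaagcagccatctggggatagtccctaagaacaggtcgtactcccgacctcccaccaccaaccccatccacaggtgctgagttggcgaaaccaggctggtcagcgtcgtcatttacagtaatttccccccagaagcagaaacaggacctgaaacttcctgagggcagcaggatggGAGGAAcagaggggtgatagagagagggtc
C1qc promoter: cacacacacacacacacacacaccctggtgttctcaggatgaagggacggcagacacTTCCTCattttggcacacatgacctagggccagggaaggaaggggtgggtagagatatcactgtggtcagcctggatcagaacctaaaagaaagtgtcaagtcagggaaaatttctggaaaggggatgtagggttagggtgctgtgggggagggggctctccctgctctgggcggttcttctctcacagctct
Each window held 1 match, on the gene's strand in C1qb and on the opposite strand in C1qc. Its first base lay 30 bases before the RefSeq start in C1qb and 193 bases before it in C1qc. These letters occurred in 23.3% of all 32851 promoter windows of that length. A match is a description of the letters and not of binding.

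C1qa was at 2039, 2785, 1858 and 2282 CPM in the macrophages of samples 1 to 4. Intermediate cells had 609.9, 623.2, 549.8 and 872.9 CPM, and monocytes 153, 84.9, 77.3 and 135.9 CPM of C1qa. The 3 classes did not overlap in any pairing of samples. C1qb followed the same order, at 1653, 2115, 1303 and 1093 CPM in macrophages, 511.1 to 644.2 CPM in intermediate cells and 91.7 to 209.8 CPM in monocytes. C1qc was at 1200, 1654, 1196 and 1356 CPM in macrophages, at 326.6 to 524.9 CPM in intermediate cells and at 50.3 to 114.1 CPM in monocytes. Macrophages ranked first and intermediate cells second for each chain in every sample, with the macrophage level 2.03 to 5.06 times the intermediate one.

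Macrophages exceeded monocytes in C1qa by 13.3-fold in sample 1 (interval 12.6 to 14.1), 32.8-fold in sample 2 (28.6 to 37.7), 24-fold in sample 3 (22.4 to 25.9) and 16.8-fold in sample 4 (15.4 to 18.3). The fold was 7.88 to 18.2 for C1qb and 10.5 to 30.4 for C1qc, and sample 2 had the largest and sample 1 the smallest for all 3 chains. In all, 4 of the 8 members that reached 10 CPM in macrophages or monocytes were at least 2-fold higher in macrophages in every sample: the 3 chains and C3ar1. Of the 8225 genes tested alike, 373 (4.53%) were. No member was at least 2-fold lower in macrophages in every sample, where 2.02% of genes were. Calls across genes used CPM with 1 added, and C2 did not reach 10 CPM in either class. The median log2 ratio was 1.18 over the 8 members and 0.15 over all genes tested. Monocytes and macrophages were separated by numbers of markers detected, so the border between them is set by the gate. Of the 8745 monocyte and macrophage cells, 2236 lay next to the macrophage limit of 4 markers. Whether these cells form a continuum was not tested.

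Outside monocytes, intermediate cells and macrophages, the C1q transcripts were low in the gated classes given here. This does not hold for cells given no class. In sample 4 these had 757 C1qa UMIs among 3478446 UMIs, and monocytes 555 among 4082793. Cells given no class held 2.05% to 3.87% of all C1qa UMIs in kept cells, and mixed cells 9.9% to 17.7%. T cells, which do not make C1q, had 8.01, 16.7, 7.17 and 9.93 CPM of C1qa. Neutrophils had 7.87, 22.8, 15 and 15.5 CPM and fibroblasts 5.77 to 17.6 CPM of C1qa. Conventional dendritic cells, of which textbooks name C1q as a product in some tissues, had 14.8, 32.2, 12.9 and 18 CPM of C1qa. Sample 2 was the highest of the 4 samples in all of these classes. Within a sample, dendritic cells had 1.8 to 1.93 times the C1qa level of T cells, with lower bounds of 1.07 to 1.38, and were above T cells in C1qb (1.4 to 2.14 times) and C1qc (1.35 to 1.75 times) in 4 of 4 samples, though the interval included 1 in samples 3 and 4 for C1qb and in samples 1, 3 and 4 for C1qc. Neutrophils had 0.982, 1.36, 2.09 and 1.56 times the C1qa level of T cells, and the interval included 1 in samples 1 and 2. They had 1.62, 1.58, 1.67 and 1.65 times the C1qb level of T cells, with lower bounds of 1.07 to 1.18. For C1qc the ratio was 0.958, 1.39, 1.9 and 1.4, and the interval included 1 in samples 1, 2 and 4. A level above that of T cells was thus not particular to dendritic cells. After thinning, the share of dendritic cells with a C1qa UMI was 0.615% to 1.59%, not above that of T cells in samples 3 and 4. Monocytes, at 77.3 CPM or more of C1qa, were above the T cells, neutrophils, fibroblasts and conventional dendritic cells.

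Counting cells gave the same order. With every cell thinned to 1000 UMIs, at least 1 C1qa UMI was found in 69.4%, 87.1%, 74.7% and 81.4% of macrophages, in 30.1% to 42.6% of intermediate cells and in 5.14% to 11% of monocytes. T cells had 0.804% to 1.68%. Without thinning the shares were 86.9% to 96.3% in macrophages and 5.9% to 9.12% in T cells, with median depths of 6203 to 8956.5 and 5250.5 to 7593.5 UMIs. UMIs of all 3 chains were found together in 35.8%, 55.2%, 39.9% and 41.3% of thinned macrophages, and none of the chains in 17%, 4.86%, 10.1% and 7.86%. Without thinning, 83.2% to 91.9% of macrophages had all 3 chains and 2.54% to 9.54% had none. Sample 1 had the largest share of macrophages without a C1q UMI in both counts.

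The ratios between the C1q chains differed between chains and samples, and that of C1qb to C1qa also between classes. C1qc UMIs stood to C1qa UMIs in macrophages as 0.588, 0.594, 0.644 and 0.594 to 1 in samples 1 to 4. C1qb stood to C1qa as 0.81 (interval 0.786 to 0.835), 0.759 (0.742 to 0.778), 0.702 (0.682 to 0.721) and 0.479 (0.464 to 0.494). Sample 4 was thus the lowest for C1qb and its interval touched no other. It was lowest in intermediate cells too, at 0.615 against 0.929 to 1.06, and in monocytes, at 0.697 against 1.19 to 1.37. In every sample the C1qb ratio was higher in monocytes than in macrophages, with intervals that did not overlap. The C1qc ratio was likewise higher in the monocytes of sample 1 (0.746, interval 0.691 to 0.804) than in its macrophages (0.588, 0.569 to 0.608), while the intervals of the 2 classes overlapped in samples 2 to 4. The size of a ratio between genes depends on how each transcript is captured, so only its change across classes and samples is read. The transcripts were counted in 1 library per sample, and whether the change between samples is of the mice or of the library cannot be told apart.

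**Figure D2:**
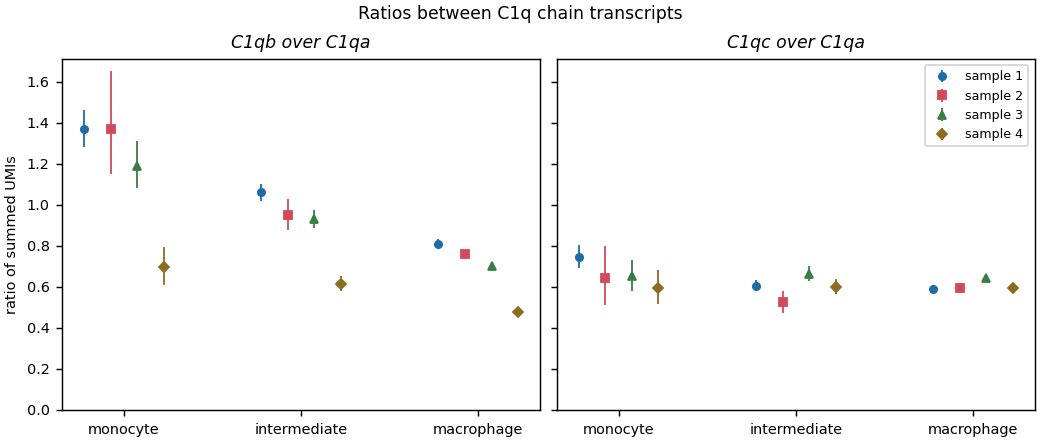
Ratio of summed C1qb to C1qa UMIs (left) and of C1qc to C1qa UMIs (right) in monocytes, intermediate cells and macrophages, with 1 symbol per sample and bars for 95% exact intervals. The C1qb ratio is lowest in sample 4 in all 3 classes (0.697, 0.615 and 0.479) and falls from monocyte to macrophage in every sample, while the C1qc ratio lies between 0.524 and 0.746.

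C2 (ENSMUSG00000024371, chr17:34862604-34898265) encodes the protease that forms the classical C3 convertase with C4b, here a fragment of the protein C4. Fibroblasts had the highest level in every sample, at 17.3, 33.1, 32.2 and 73 CPM, which rest on 14, 30, 95 and 85 UMIs. Macrophages had 2.76, 7.05, 2.56 and 5.78 CPM, and monocytes at most 0.735 CPM. Neutrophils held 0 C2 UMIs in samples 1, 2 and 4, which allows up to 0.352, 1.49 and 0.361 CPM, and 2 UMIs in sample 3. The fibroblast level exceeded that of monocytes, intermediate cells and macrophages summed by 19.3-fold (interval 9.08 to 39.8), 8.09-fold (4.88 to 13.3), 31-fold (19.7 to 50.8) and 27-fold (18 to 41.2). Over the next highest class the fold was smaller, at 3 (1.18 to 8.26), 4.69 (2.82 to 7.72), 12.6 (7.46 to 22.5) and 12 (7.29 to 20.6). That class was NK and innate lymphoid cells in sample 1, macrophages in samples 2 and 3 and epithelial cells in sample 4.

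C3 (ENSMUSG00000024164, chr17:57203970-57228136) encodes the protein on which all activation routes converge. Its level in fibroblasts was 1651, 1812, 990.3 and 2039 CPM in samples 1 to 4. Monocytes had 173.6, 160.2, 146.1 and 147.4 CPM, macrophages 105.1, 60.5, 172 and 119.2 CPM, and neutrophils 117.3, 106, 89 and 124.9 CPM of C3. T and B cells had 2.03 to 5.63 CPM and conventional dendritic cells 4.12 to 12 CPM, so neutrophil, monocyte and macrophage levels all lay above those of lymphocytes. Fibroblasts exceeded monocytes and macrophages summed by 10.9-fold (10.2 to 11.6), 19.1-fold (17.6 to 20.7), 6.28-fold (5.98 to 6.59) and 16.2-fold (15.2 to 17.3). After thinning to 1000 UMIs, 42.1% to 68.4% of fibroblasts and 5.88% to 12.6% of macrophages had a C3 UMI, against at most 0.241% of T cells. Fibroblasts were few, and their share of all C3 UMIs in kept cells was 17%, 35.6%, 29.7% and 35%, against 45.3%, 20.6%, 37% and 23.9% for monocytes and macrophages and 19.1% to 31.7% for mixed cells.

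Between monocytes and macrophages C3 had no common direction. It was lower in macrophages in samples 1 (0.606-fold, interval 0.547 to 0.669), 2 (0.378, 0.326 to 0.437) and 4 (0.809, 0.722 to 0.905), and higher in sample 3 (1.18, 1.09 to 1.27). A like spread showed when monocyte and macrophage cells were ordered by how many of the 13 macrophage markers they had. The gate used the same cells and markers, so this order is not independent of it. From cells with 0 to 1 markers to cells with 8 to 13, C3 went from 179.3 to 62.9 CPM in sample 1 and from 141.4 to 47.3 CPM in sample 2. It went from 139.7 to 178.1 CPM in sample 3. In sample 4 it went from 141.9 to 129.9 CPM, with its lowest level, 106.6 CPM, in cells with 4 to 5 markers. Over the same steps C1qa went up in every sample, from 49.3 to 119.1 CPM at the low end to 2113 to 3108 CPM at the high end. Cells with more markers also had more UMIs, with a median of 12811 against 7464.5 in sample 1 and 8251.5 against 5314 in sample 2, and the part of depth in the order of cells was not tested.

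**Figure D3:**
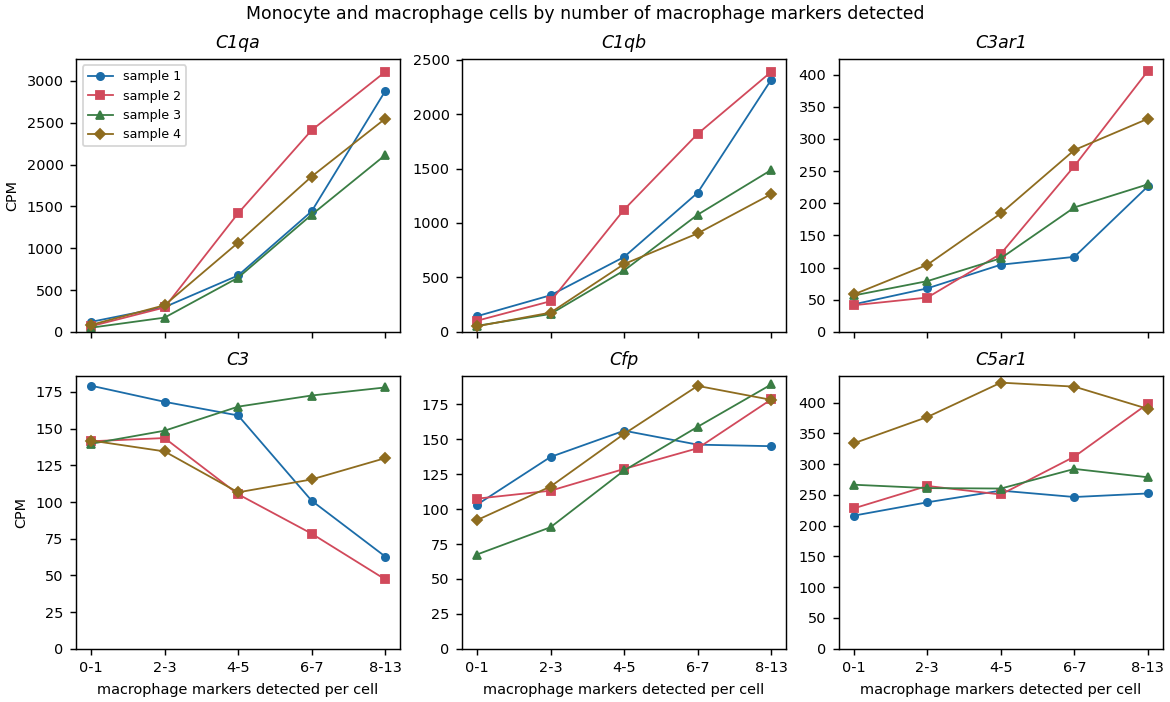
Level of 6 genes in CPM (vertical, from 0) in monocyte, intermediate and macrophage cells by the number of macrophage markers detected per cell (horizontal), with 1 line per sample. C1qa, C1qb and C3ar1 go up with the number of markers in every sample, while C3 goes from 179.3 to 62.9 CPM in sample 1 and from 139.7 to 178.1 CPM in sample 3.

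The promoter of C3 (chr17:57228137-57228386, GRCm38.p6, minus strand) is shown for the contrast of its class pattern with that of the C1q genes. Capitals mark TTGCNNAA on either strand, the letters of a C/EBP site, a motif of acute phase genes, found in 9.56% of all windows.
C3 promoter: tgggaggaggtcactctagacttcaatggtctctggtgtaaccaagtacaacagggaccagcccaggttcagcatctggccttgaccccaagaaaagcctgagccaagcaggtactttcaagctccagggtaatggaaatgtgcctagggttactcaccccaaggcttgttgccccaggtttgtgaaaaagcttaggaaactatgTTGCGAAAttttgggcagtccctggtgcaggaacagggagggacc
The window held 1 match on the gene's strand, 45 bases before the start, and no GAGGAA. The windows of Cfp, C3ar1 and C5ar1, not shown, held no GAGGAA either. Among the 6 genes with a window, C1qb and C1qc alone held it, next to 23.3% of all windows. Whether these letters bear on the class levels was not tested.

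Cfb (ENSMUSG00000090231, chr17:34856374-34862518) lies 85 bases from C2 on the same strand and encodes factor B, the protease of the alternative pathway. Its level in fibroblasts was 335.3, 256.7, 106.9 and 137.5 CPM. Monocytes had 200.8, 53.7, 78 and 31.1 CPM, intermediate cells 206.2, 45.6, 121.8 and 46.7 CPM, and macrophages 120.7, 40.4, 112.5 and 40.6 CPM. Samples 1 and 3 were the 2 highest in all 3 of these classes. Fibroblasts ranked first in samples 1, 2 and 4. In sample 3 the first was the intermediate class, 1.08 times the macrophage level (interval 0.978 to 1.2), which is within counting error. The fibroblast fold over monocytes and macrophages summed was 1.8, 5.75, 1.07 and 3.5, so that Cfb did not reach 2-fold in every sample.

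Neutrophils had 3.17, 0.495, 3.08 and 1.32 CPM of Cfb, which in samples 1, 3 and 4 were lower than monocytes and macrophages summed by 58.9-fold (interval 40.4 to 89.5), 32.3-fold (22.6 to 48.1) and 29.7-fold (16.4 to 59.8). Sample 2 held 1 Cfb UMI in neutrophils, a ratio of 90.1 with an interval of 16.1 to 3570. T cells had 0.578 to 2.36 CPM, a range that overlaps that of neutrophils. Endothelial cells, which reached 50 only in sample 3, had 29.4 CPM there, and epithelial cells 39.7 and 51.2 CPM of Cfb in samples 2 and 4. C2 and Cfb thus differed by class in these counts: monocytes had 31.1 CPM or more of Cfb but at most 0.735 CPM of C2. In GENCODE M21 a readthrough gene, Gm20547, overlaps both and is not in the list of genes counted, and the Zbtb12 gene overlaps C2 on the other strand. How reads shared by these genes were assigned was not tested.

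In all, 2 of the 9 members, C2 and C3, were at least 2-fold higher in fibroblasts than in monocytes and macrophages summed in every sample, against 19.6% of 10136 genes tested. Lower by at least 2-fold in fibroblasts were 6 members, against 12.2% of genes: the C1q chains, Cfp, C3ar1 and C5ar1. A gene could enter this count through 1 class alone, as C2 did through fibroblasts. C1qb, Cfp, C3ar1 and C5ar1 entered through monocytes and macrophages alone. All genes tested passed the same filter, and the counts are not independent of it.

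Cfp (ENSMUSG00000001128, chrX:20925454-20931555) encodes properdin, which stabilises the alternative pathway convertase and is released by leukocytes. Macrophages had 136.6, 157.2, 176.8 and 178.3 CPM, intermediate cells 147.9, 143.7, 122.3 and 156.7 CPM, monocytes 130.8, 104.9, 74.6 and 99.7 CPM, and neutrophils 108, 83.2, 85.1 and 82.7 CPM. Macrophages were first in sample 3 (1.45 times the intermediate level, interval 1.32 to 1.59) and sample 4 (1.14, 1.02 to 1.27). In sample 1 the intermediate class was first (1.08 times the macrophage level, 0.984 to 1.19) and in sample 2 macrophages were (1.09, 0.953 to 1.26), both within counting error. Cfp was thus spread over the myeloid classes, and T cells had 3.41 to 5.5 CPM. Mixed cells held 25.2%, 40.4%, 24.6% and 24.7% of all Cfp UMIs in kept cells, and monocytes and macrophages 50.4%, 37.2%, 52.1% and 49%. The neutrophil level was 0.56 to 0.782 of that of monocytes and macrophages summed.

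Conventional dendritic cells varied in Cfp more than the other myeloid classes, with 96.6, 139.3, 26.1 and 41.1 CPM. Their makeup also differed. Mature dendritic cells were 62 of 148 cells in sample 1, 49 of 127 in sample 2, 284 of 328 in sample 3 and 83 of 106 in sample 4, and had 26.2, 11.3 and 14.9 CPM of Cfp in samples 1, 3 and 4. Type 2 conventional dendritic cells, which reached 50 cells only in sample 1, had 208.1 CPM there. The part of this makeup in the difference between samples was not tested.

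C3ar1 (ENSMUSG00000040552, chr6:122847138-122856161) encodes the receptor for C3a. Macrophages had 162.3, 334.4, 204.6 and 306.8 CPM, intermediate cells 81.9, 68.1, 115.1 and 159 CPM, and monocytes 65.8, 45.6, 70.2 and 89.1 CPM. Macrophages were above monocytes in every pairing of samples, and the fold was 2.47 (interval 2.22 to 2.74), 7.33 (6.06 to 8.93), 2.91 (2.66 to 3.19) and 3.44 (3.07 to 3.87). Neutrophils had 2.7, 1.49, 3.8 and 3.85 CPM, next to 0.943 to 2.03 CPM in T cells. In thinned cells a C3ar1 UMI was found in 16.8% to 26.9% of macrophages, 3.78% to 7.36% of monocytes, at most 0.359% of neutrophils and at most 0.481% of T cells.

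C5ar1 (ENSMUSG00000049130, chr7:16246743-16259540) encodes a receptor for C5a, a strong attractant of neutrophils. Neutrophils had the highest level in every sample, at 465.8, 468, 440.4 and 503.4 CPM. Monocytes had 261, 283.1, 281.4 and 379.4 CPM, and macrophages 231.5, 352.7, 278.8 and 414.5 CPM. The neutrophil range lay above all of these. Relative to monocytes and macrophages summed, neutrophils were 1.93, 1.5, 1.64 and 1.28 times as high, with the lower bounds at 1.23 or more, which is short of 2-fold. Macrophages stood to monocytes as 0.887, 1.25, 0.991 and 1.09, and the interval of sample 3 (0.934 to 1.05) included 1. T cells had 4.56 to 8.03 CPM, and the fibroblasts of sample 1 held 0 UMIs, which allows up to 3.7 CPM.

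The receptors thus differed by class. C5ar1 was highest in neutrophils, by less than 2-fold over monocytes and macrophages summed. C3ar1 in monocytes and macrophages summed was 33.7 (interval 22.4 to 53.2), 31.8 (23 to 45.3) and 51.6 times (36.4 to 75.6) its level in the neutrophils of samples 1, 3 and 4. In sample 2, where neutrophils held 3 C3ar1 UMIs, the ratio was 143 (49 to 696). In all, 5 of the 8 members tested were at least 2-fold lower in neutrophils than in monocytes and macrophages in every sample: C1qa, C1qb, C1qc, Cfb and C3ar1. This was so for 33.4% of the 8185 genes tested. None of the 8 was at least 2-fold higher in neutrophils, against 7.57% of genes. Against conventional dendritic cells, no member was at least 2-fold higher in the dendritic cells, where 7.73% of genes were. Of the 8 members, 7 were lower, all but Cfp, where 8.79% of genes were. Cfb and C3ar1 entered both counts of lower members through monocytes and macrophages alone. They were at most 3.17 and 3.85 CPM in neutrophils and 8.99 and 7.72 CPM in dendritic cells. These counts are thus not independent of the 10 CPM filter.

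Over the 10 to 12 classes with at least 50 cells in a sample, 7 of the 9 members had the same highest class in all 4 samples, as did 32.0% of the 13268 genes with 10 CPM in a class. These were the C1q chains and C3ar1 in macrophages, C2 and C3 in fibroblasts and C5ar1 in neutrophils. Cfb and Cfp did not. Endothelial and mast cells reached 50 cells in 1 sample, epithelial cells in 2 and plasma cells in 3. A gene highest in such a class could not have the same highest class in all 4 samples, which lowers the share over all genes. C2 reached 10 CPM in fibroblasts alone, the class it was called for. Across the 43 points of class and sample, the genes most like C1qa in log2(CPM + 1), out of 7972 genes, were C1qc (Pearson r = 0.985), C1qb (0.984) and Ms4a7 (0.966), and Trem2 was the third for C1qb (0.964). Those nearest C3ar1 were Clec4a3 (0.964), Clec4a1 (0.961) and C1qa (0.953). C3 was nearest Pdpn (0.937), Tnfaip6 (0.927) and Rhou (0.911), and C2 nearest Slit2 (0.846), Maged2 (0.845) and Ikbip (0.835). Nearest Cfb were Ctsl (0.912), Zfyve9 (0.911) and Mcfd2 (0.905), nearest Cfp Pirb (0.949), Il1b (0.945) and Clec4n (0.944), and nearest C5ar1 Gm5150 (0.969), Clec4d (0.969) and Slc11a1 (0.968). For C1qc they were C1qa (0.985), C1qb (0.984) and Ms4a7 (0.966). Classes of 1 sample share a library, and Ms4a7, Trem2 and Clec4a1 are among the markers that set the classes. Between members, C3 and Cfb had r = 0.812 and C2 and Cfb r = 0.406 over the same points.

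Within a class the members differed between samples by various amounts. In macrophages, 3 of 8 had a highest sample at least 2 times the lowest, against 16.9% of 7992 genes: C3, Cfb and C3ar1. The ranges were 60.5 to 172 CPM for C3, 40.4 to 120.7 CPM for Cfb and 162.3 to 334.4 CPM for C3ar1. Without sample 2, which held the lowest C3 and Cfb and the highest C3ar1, Cfb alone remained. In monocytes 3 of 8 did so, against 14.3% of 7380 genes: C1qb, C1qc and Cfb. Without sample 1, the highest for all 3 of these, Cfb alone remained. The shares of genes given are for all 4 samples, and those with a sample left out are not given here. Cfb in monocytes ran from 31.1 to 200.8 CPM, 2.65 on the log2 scale, where the median gene tested had 0.53. By contrast C3 in monocytes ran from 146.1 to 173.6 CPM, and Cfp in macrophages from 136.6 to 178.3 CPM.

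Of 40 other complement genes on a fixed list, 15 reached 20 CPM in 1 class in every sample that held 50 cells of it, and 5 of these were highest in fibroblasts in every sample. In the classical pathway these were C1s1 (571.5 to 927.1 CPM), C1ra (226 to 327.9 CPM) and C4b (493.1 to 597.1 CPM). C1ra and C1s1 encode C1r and C1s, the proteases that C1q carries. The gene C4b encodes the component C4, which C1s cleaves. Macrophages had 0.212 to 1.66 CPM of C1s1 and 4.46 to 8.2 CPM of C1ra. So the C1q chains and the C1q proteases were at their highest in different classes in all 4 samples. The counts of 15 of 40 and 5 of 15 have no share over all genes beside them here, so they describe the list only.

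Fibroblasts were also first in every sample for an inhibitor and a scavenger receptor. Serping1, the inhibitor of C1r and C1s, was at 903.8 to 1409 CPM in fibroblasts and 1.06 to 2.26 CPM in macrophages. Colec12, a scavenger receptor with a collectin-type domain, was at 166.4 to 228.4 CPM in fibroblasts. The inhibitors Clu, Cd46 and Cd59a met the limit only through endothelial cells, which reached 50 cells in sample 3 alone, at 191.8, 23.2 and 29.4 CPM. In samples 1, 2 and 4, Cd46 was highest in B cells and Cd59a in fibroblasts. Clu was highest in conventional dendritic cells in samples 1 and 4 and in fibroblasts in sample 2. Cd93, a receptor first described for C1q, was at 905.1 CPM in these endothelial cells and at 228.6 to 400 CPM in macrophages.

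On B cells, the regulators Cd55 (243 to 313.1 CPM) and Cr1l (95.97 to 137.1 CPM) and the receptor Cr2 (47.1 to 108.8 CPM) had their highest median over samples. Fibroblasts had 186 to 334.1 CPM of Cd55, a range that overlaps that of B cells. Itgam and Itgb2, which form complement receptor 3, were highest in neutrophils in every sample, at 827.6 to 1431 and 279 to 342 CPM, and Itgax, of complement receptor 4, was at 42.1 to 100.7 CPM in macrophages. None of the 7 terminal pathway genes met the limit, nor did Cfd, the factor D protease. Below it, and named after their values were seen, C7 was highest in fibroblasts in every sample, at 44.4, 12.1, 45.1 and 83.3 CPM, and Cfd had 153 CPM (178 UMIs) in the fibroblasts of sample 4 and 0 UMIs in those of samples 1 to 3, which allows up to 3.7, 3.31 and 1.02 CPM. Of the 40, 11 were tested between macrophages and monocytes, and 3 were at least 2-fold higher in macrophages and none lower, against 4.53% and 2.02% of all genes tested. These were Itgax and, named after their values were seen, Fcna (1.91 to 25.4 CPM in macrophages) and C6 (4.04 to 29.4 CPM). All 11 reached 10 CPM in macrophages but only 6 did so in monocytes, so some entered through macrophages alone. In fibroblasts against monocytes and macrophages 19 were tested, and 10 were higher and 5 lower, against 19.6% and 12.2% of all genes. Some of these entered through fibroblasts alone: C1ra and C1s1 were at most 5.03 and 1.69 CPM in monocytes and macrophages summed. These counts thus depend on the filter and describe the list only. In neutrophils 11 were tested, and 2 were higher (Cd55 and Itgam) and 2 lower (C4b and Itgax), against 7.57% and 33.4% of all genes.

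**Figure D4:**
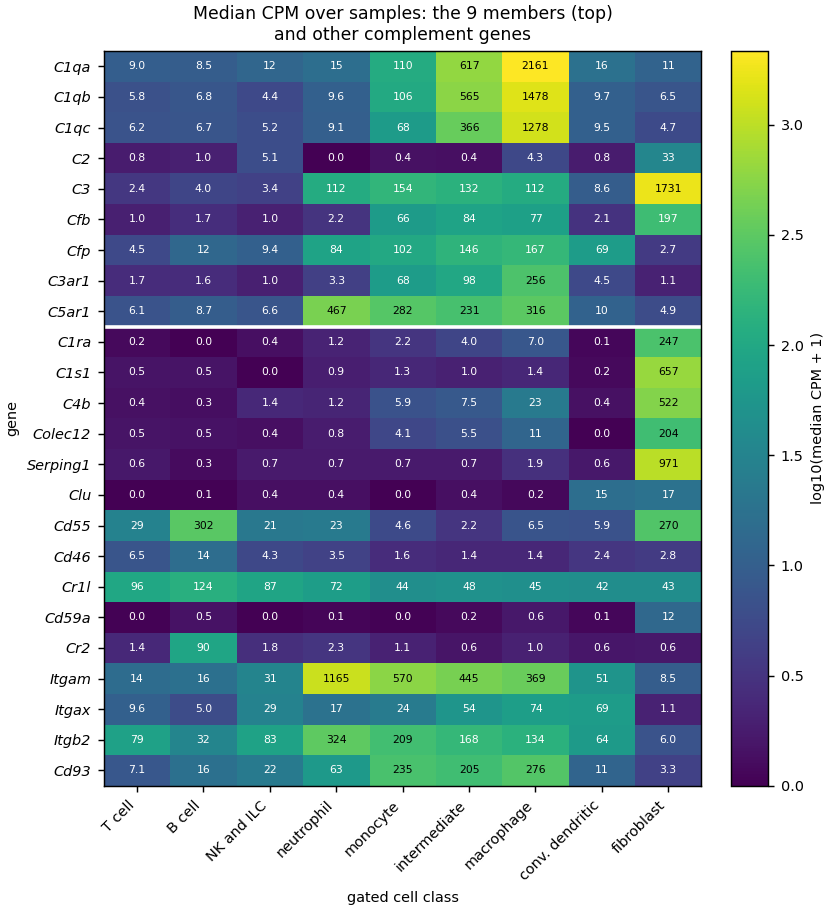
Median CPM over the samples with at least 50 cells, printed in each cell of the map and coloured by log10(median CPM + 1), for the 9 genes (above the white line) and the 15 other complement genes (below it) by gated class. C1ra, C1s1, C4b and Serping1 are highest in fibroblasts and the C1q chains in macrophages.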

How the data were processed

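Single-cell libraries of 4 samples were analysed. The authors deposited, per sample, raw counts of UMIs per gene and cell, with lists of genes and barcodes as other text. Per the submitters' processing notes these were made with Cell Ranger 5.0.0, STAR and Seurat on mm10, while the file headers name Cell Ranger 7.0.1, whose default also counts intronic reads, which would raise intron-rich genes. How strand was used is not given in the sources used here. Samples had no genotype in the labels and entered no comparison between groups.

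Cells with at least 200 genes and under 20% mitochondrial UMIs were kept (43432 of 45229), and the highest Scrublet scores were removed at 0.8% per 1000 cells (scanpy 1.11.5, 3882 cells). A class needed at least 50% of its list detected, and no unlike list above 60% of that share. Monocytes had at least 50% of the 9 monocyte markers and under 25% of the 13 macrophage markers, and macrophages at least 30% of the latter and at most 50% of the former. The scoring rule was written after the shares detected had been seen.

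Levels are CPM of UMIs summed per class and sample, for classes of at least 50 cells. A gene was called where its fold passed 2 in every sample, on CPM with 1 added, among genes with 10 CPM in a class compared. A gene could reach 10 CPM in 1 class alone, which was then the class where it was high. Cells are not replicates and the samples form no groups, so no p-value was computed. Intervals are exact Poisson, exact conditional for ratios and exact binomial for shares, at 95%, and a count of 0 was given the limit of 3 counts. The 9 genes and all lists were chosen with earlier results of these data known. All 9 members were named, with the listed complement genes of at least 20 CPM in a class in every sample holding 50 cells of it, and the 3 genes most correlated with each member among those of at least 50 CPM in a point. A further gene of the complement list is not reported here. Alternatives were other gates, clusters, filters, scalings and folds, and leaving out each sample. The calls, the ratio interval and the gate were run on simulated Poisson counts, with no spread between samples. Simulated cells were drawn from the gated classes themselves, so this cannot test whether the gate is right. Coordinates are from GENCODE M21 on GRCm38, promoters from RefSeq on GRCm38.p6. Other tools were Python 3.11.15, numpy 2.4.6, scipy 1.17.1, pandas 2.3.3, igraph 0.11.9 and matplotlib 3.10.9.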

Additional observations from a re-analysis of the deposited data

How the results depend on the processing

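Of 144 values of the 9 counts of members under the alternatives, 137 stayed within 1.5 times the main count, and all 7 others were counts of members that varied between samples. In macrophages that count was 3, and became 5 with Leiden clusters in place of the gate, 5 at a fold of 1.5 and 0 at a fold of 3, with 1 to 3 when each sample was left out. In monocytes it was 3, and became 6 at a fold of 1.5 and 1 at a fold of 3, with 1 to 3 when each sample was left out. The share of all genes under each of these alternatives is not given here, so these counts cannot be set against it. The clusters were named as wholes, so the cells that counted as macrophages differed. Of 324 values of the members' log2 ratios between classes, 302 moved by less than the spread between samples, 22 by more, and no called ratio changed its sign. The 22 all lay in ratios of the C1q chains, or in ratios of C2, Cfp or C5ar1 with cells thinned to 1000 UMIs. Contrasts between classes lie within each sample and are thus paired by sample, and no test over samples was run because the labels put them in no group. The depth limits C2, which rests on 14 UMIs in the fibroblasts of sample 1. The part of free RNA in the low levels of the C1q chains, C3ar1 and Cfb in lymphocytes, neutrophils and dendritic cells was not tested.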
